A study of Homo sapiens with 8 samples.

Results

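Expression of the complement components and regulators C3, CFB, C1R, C1S, C1RL, CFI, CD46, CD55 and CD59 is described here, 9 genes taken by gene name from the 60796 of the deposited expression table. Complement is a cascade of secreted proteases and binding proteins that tags surfaces with fragments of C3 and can end in a membrane pore. C3 is its central component, C1r and C1s start the classical pathway, and factor B supplies the protease of the alternative pathway. Host cells hold the cascade in check with factor I and with the membrane proteins CD46, CD55 and CD59, and intestinal epithelial cells make several of these components themselves.

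The cells were HT-29, an established human colorectal adenocarcinoma line, and RNA sequencing gave 8 libraries. The libraries came from cells given 5-FU (5-fluorouracil, a drug that blocks thymidylate synthase), from cells given the 74 3NP extract, from cells given the 76 3P extract and from control cells, with 1 library at 24 h and 1 at 48 h for each. The protocol names the rices MRQ 74 and MRQ 76 and IC50 amounts of their extracts. The labels do not say what 3NP and 3P mean, how much 5-FU was given, what the control cells received or whether the libraries came from separate cultures. The treatment label reads plant extract for every library, so groups were taken from the titles.

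Values are FPKM, reads scaled by gene length and a factor for each library, so levels of different genes can be compared. That factor was 16686163 reads for the 5-FU 48 h library, which had 18258459 reads on genes. For the control 48 h library it was 22898497, with 22108476 reads on genes, and ratios between libraries carry this scaling. Each library held 18141663 to 28048517 reads on genes, as recovered from FPKM and gene length. All 10 colon epithelial marker genes, among them EPCAM, CDH1 and KRT8, passed a filter of FPKM 1 or more in at least 2 libraries. Their summed FPKM at 24 h and 48 h was 2057 and 2853 with 5-FU and 2622 and 2501 with the 74 3NP extract. It was 1927 and 1542 with the 76 3P extract and 2329 and 2176 in the controls. With the 76 3P extract 3 of them were higher and 7 lower than control in the mean of both times. The 76 3P extract 48 h library had 26712 genes with a read, where the other 7 libraries had 23111 to 24665, and mitochondrial genes took 6.83% of its reads, against 2.96% and 3.18% in the control libraries. That share was 4.62% and 5.52% with 5-FU, 3.12% and 4.07% with the 74 3NP extract and 2.98% in the other 76 3P extract library. In bulk RNA, fewer cells expressing a gene and less RNA per cell cannot be told apart.

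Of the 9 genes, 7 passed the filter and 2, C1S and CFI, did not. C3 reached FPKM 1 only in the 4 extract libraries, CFB only in the 74 3NP extract 24 h and 76 3P extract 48 h libraries, and C1R only in the 48 h libraries of both extracts. These 3 genes thus entered the test only through extract libraries, where they are high, and had to differ there; their limma values below are selected in that way. By median FPKM over the 8 libraries the order was CD46 at 32.3, CD59 at 14.3, CD55 at 13.1, C1RL at 8.07, C3 at 0.701, C1R at 0.561, CFB at 0.489, C1S at 0.487 and CFI at 0. The ranges of neighbours in this order overlapped, except that every library had less C1RL than any library had CD55, and less CFI than any had C1S. By median the membrane regulators were thus the most abundant transcripts, C1RL came next, and C3, C1R, CFB, C1S and CFI were scarce. In both 74 3NP extract libraries, however, C3 stood above CD55 and CD59.

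**Figure D1:**
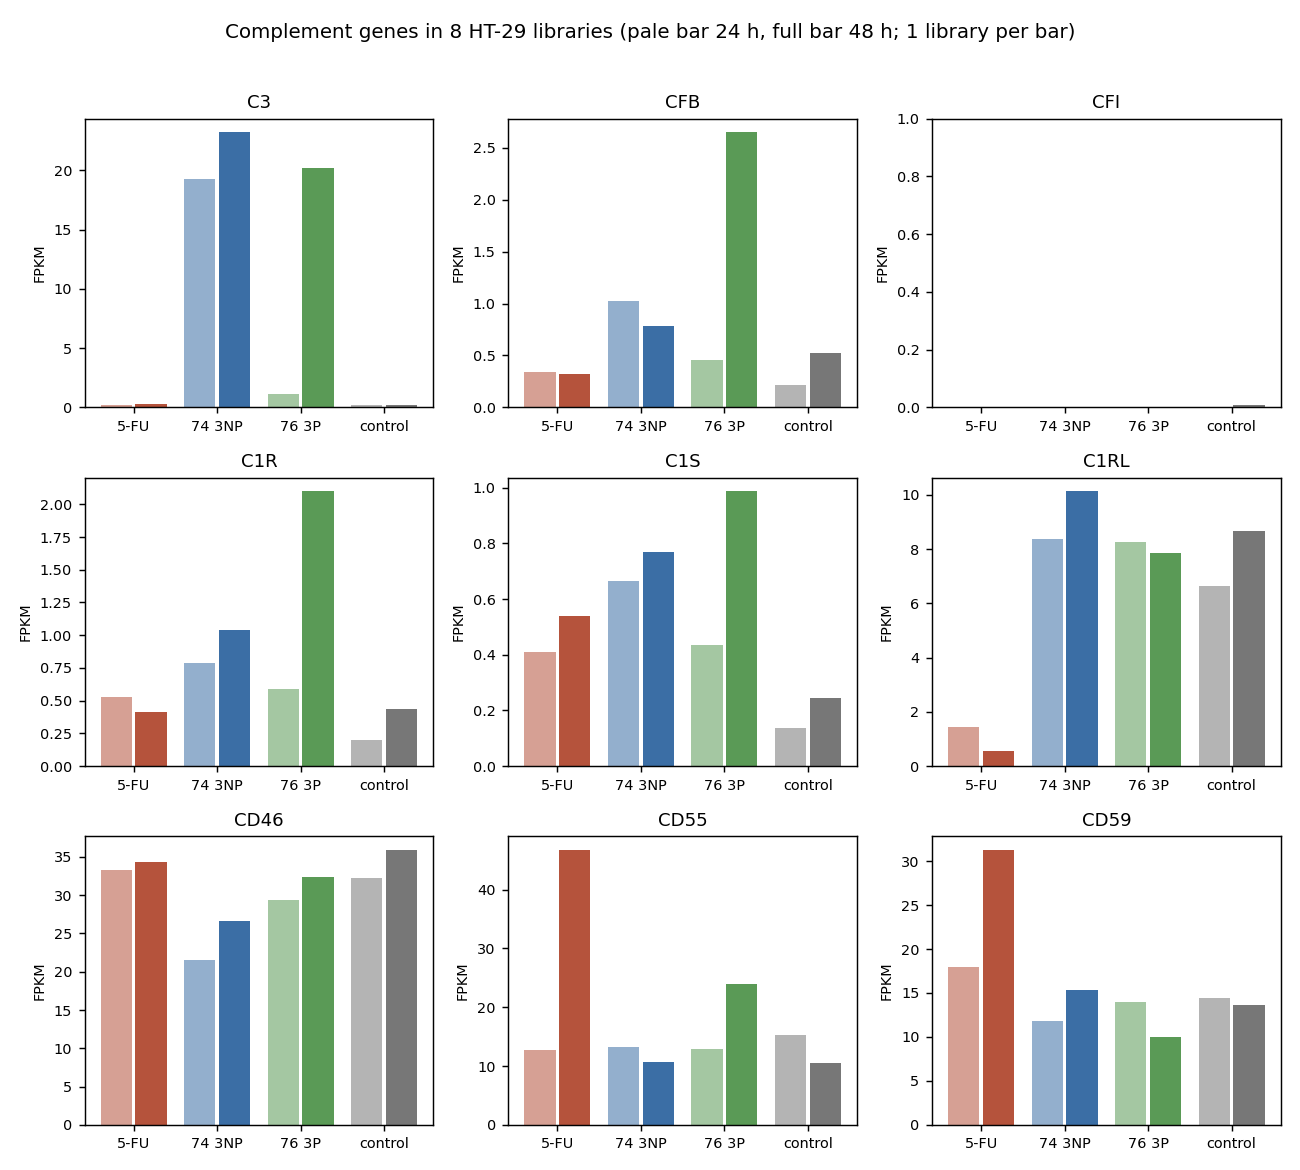
FPKM of the 9 complement genes in each library, with 1 bar per library, pale for 24 h and full for 48 h, and a separate vertical scale for each gene. C3 stood at 19.3 and 23.2 with the 74 3NP extract and at 20.2 with the 76 3P extract at 48 h, C1RL was lowest in both 5-FU libraries, and CD55 and CD59 were highest in the 5-FU 48 h library.

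RefSeq promoter windows (GRCh38.p14, 250 bases before to 50 after an annotated start) were found for 7 of the 9 genes, and not for C3 and C1S. Those of CFB, C1R, C1RL and CD55 are shown as examples of windows with a match. Of the 4 CD59 windows, 2 held the GAS match TTCTCAGAA, 1 held 3 AP-1 matches and the other held no match. The CD46 and CFI windows held no match either, and the windows of these 3 genes are not printed. C1R has 2 windows, of which the downstream is printed. Capitals mark matches on either strand to 4 patterns, which do not overlap in these windows. They are an NF-kB pattern (GGG, any 2 bases, TT, any base, CC), an interferon response pattern called ISRE (GAAA, any 2 bases, GAAA), a STAT pattern called GAS (TTCNNNGAA) and an AP-1 pattern (TGANTCA).
CFB, chr6:31945845-31946144, plus strand: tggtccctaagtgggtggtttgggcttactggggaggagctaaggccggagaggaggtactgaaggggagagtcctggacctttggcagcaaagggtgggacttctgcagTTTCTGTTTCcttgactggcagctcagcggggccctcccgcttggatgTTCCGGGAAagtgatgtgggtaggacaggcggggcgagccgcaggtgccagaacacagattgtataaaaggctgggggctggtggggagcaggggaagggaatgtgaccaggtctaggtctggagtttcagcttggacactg
C1R, chr12:7091844-7092143, minus strand: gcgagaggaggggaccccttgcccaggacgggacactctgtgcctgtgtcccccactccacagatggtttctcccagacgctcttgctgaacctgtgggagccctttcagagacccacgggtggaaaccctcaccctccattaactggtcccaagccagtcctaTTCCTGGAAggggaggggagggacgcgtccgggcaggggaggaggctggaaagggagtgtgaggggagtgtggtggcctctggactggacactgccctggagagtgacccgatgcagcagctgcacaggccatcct
C1RL, chr12:7109165-7109464, minus strand: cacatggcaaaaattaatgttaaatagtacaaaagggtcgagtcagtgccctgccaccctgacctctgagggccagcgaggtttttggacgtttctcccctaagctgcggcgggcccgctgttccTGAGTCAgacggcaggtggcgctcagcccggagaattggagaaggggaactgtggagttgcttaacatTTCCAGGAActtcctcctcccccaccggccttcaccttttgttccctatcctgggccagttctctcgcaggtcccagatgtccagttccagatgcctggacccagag
CD55, chr1:207321428-207321727, plus strand: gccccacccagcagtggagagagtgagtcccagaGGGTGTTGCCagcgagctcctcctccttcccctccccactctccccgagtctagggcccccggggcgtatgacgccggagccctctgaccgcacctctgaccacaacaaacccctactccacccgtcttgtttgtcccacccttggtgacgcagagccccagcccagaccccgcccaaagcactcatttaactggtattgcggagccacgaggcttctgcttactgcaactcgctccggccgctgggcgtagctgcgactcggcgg

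The CFB window held an ISRE match starting 140 bases before the start site, lying on the other strand and so printed as TTTCTGTTTC, and a GAS match, TTCCGGGAA, 92 bases before it. The printed C1R window held the GAS match TTCCTGGAA, and the other C1R window held no match. C1RL had the GAS match TTCCAGGAA and the AP-1 match TGAGTCA, and CD55 had the NF-kB match GGGTGTTGCC. Among all 35116 RefSeq windows of this length, 5.68% held the NF-kB pattern, 3.57% the ISRE pattern, 7.66% the GAS pattern and 7.71% the AP-1 pattern. The matches describe these letters only.

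C3 (ENSG00000125730, GRCh38 chromosome 19, 6677704 to 6730562, minus strand) encodes the protein whose cleavage to C3a and C3b all activation routes share. It was nearly silent in 5-FU and control cells and was among the expressed genes after either extract. Taking 24 h before 48 h, C3 had FPKM 0.165 and 0.260 with 5-FU, 19.3 and 23.2 with the 74 3NP extract, 1.14 and 20.2 with the 76 3P extract, and 0.155 and 0.200 in control cells. All 4 extract libraries lay above all 4 others, and the 76 3P extract library of 24 h lay far below the other extract libraries. These values rest on 3049 and 3571 reads with the 74 3NP extract and 279 and 4382 with the 76 3P extract, against 28 and 38 in the controls. Its annotated span shares 649 bases with GPR108 on the same strand, a gene with FPKM 26.5 and 23.8 with the 74 3NP extract, 24.8 and 33.6 with the 76 3P extract, and 13.9 and 17.3 in the controls, and the part of those reads in C3 was not tested.

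Against the control of its time, C3 was 124-fold higher (exact 95% counting interval 85.6 to 187) at 24 h and 116-fold (84.3 to 164) at 48 h with the 74 3NP extract. With the 76 3P extract it was 7.34-fold higher (4.97 to 11.3) at 24 h and 101-fold (73.4 to 143) at 48 h. The 5-FU ratios were 1.06 (0.618 to 1.83) and 1.30 (0.801 to 2.11), both intervals including 1. Counting intervals hold no variation between cultures, and 1 library a time gives no test of a single time. The extracts thus reached like levels at 48 h, while at 24 h C3 was high with the 74 3NP extract and low with the 76 3P extract.

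**Figure D2:**
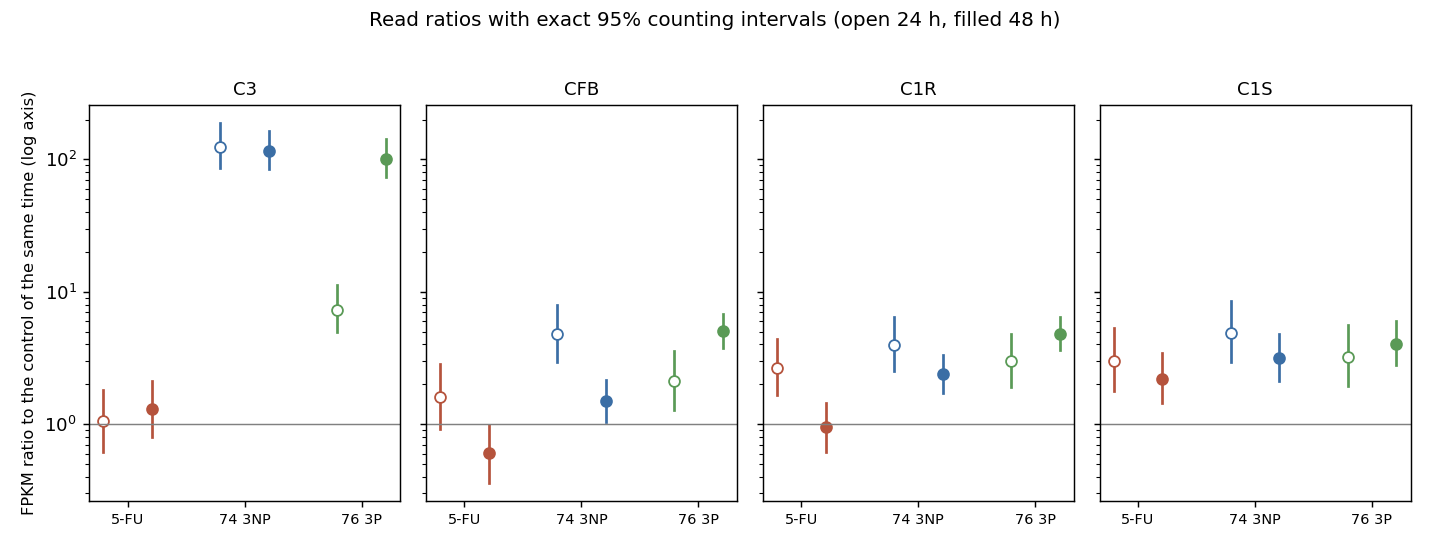
FPKM ratio of each treated library to the control library of the same time on a log axis, for C3, CFB, C1R and C1S. Open points are 24 h, filled points 48 h, and bars are exact 95% counting intervals. C3 ratios reached 124 and 101 with the extracts, while those of CFB, C1R and C1S stayed between 0.602 and 5.03.

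Treatments were tested as the mean of their 24 h and 48 h differences in log2(FPKM + 1), with limma fitted to all 13388 genes past the filter and p-values adjusted over all of them. On this scale C3 was 4.23 (SE 0.69) higher with the 74 3NP extract than in the controls, which did not pass (limma adjusted p 0.104). With the 76 3P extract the difference was 2.52 (SE 0.69, limma adjusted p 0.145), and with 5-FU it was 0.041 (SE 0.69, 95% interval -1.54 to 1.62, limma adjusted p 0.977). The SE is shared by all treatments and so holds the change of C3 between 24 h and 48 h under the 76 3P extract. Without the 76 3P extract 24 h or 48 h library the 74 3NP extract difference was again 4.23, with SE 0.18 and 0.19 and limma adjusted p 0.000514 and 0.000654. It also passed with a filter at FPKM 5 (limma adjusted p 0.0359) and on the 4 libraries compared (limma adjusted p 2.26e-05). With limma voom on recovered reads the log2 difference was 7.09 (limma adjusted p 0.0459). In all of these fits the filter kept C3 only for its extract values, so the passes are selected in the same way. For the 76 3P extract the value was 0.93 without its 48 h library and 4.10 without its 24 h library. Each of these rests on 1 library of that extract.

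Relative to 5-FU, C3 rose by 4.19 (SE 0.69, limma adjusted p 0.019) with the 74 3NP extract and by 2.47 (SE 0.69, limma adjusted p 0.0414) with the 76 3P extract, both on a gene that the filter kept for its extract values. The first call was lost without the 5-FU 48 h library (limma adjusted p 0.138) or the 74 3NP extract 24 h or 48 h library (limma adjusted p 0.149 and 0.113). The second was lost without the 76 3P extract 48 h library, where the value was 0.89, and without either 5-FU or either 74 3NP extract library (limma adjusted p 0.0588 to 0.27). It was also lost with a pseudocount of 5, no filter, quantile normalization or no time term (limma adjusted p 0.0611 to 0.217), and the first with no filter (0.151). Between the extracts C3 differed by 1.72 (74 3NP minus 76 3P, SE 0.69, 95% interval 0.13 to 3.30), which did not pass (limma adjusted p 0.357). Without the 76 3P extract 48 h library that difference was 3.30, resting on the 24 h library of that extract. The other 6 genes tested differed between the extracts by -0.53 for CD55 to 0.18 for CD59, with limma adjusted p from 0.481 to 0.837.

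CFB (ENSG00000243649, chromosome 6, 31945650 to 31952084, plus strand) encodes factor B, which binds C3b and carries the protease of the alternative pathway convertase. Its FPKM was 0.343 and 0.317 with 5-FU, 1.02 and 0.786 with the 74 3NP extract, 0.452 and 2.65 with the 76 3P extract, and 0.214 and 0.526 in the controls. CFB was highest in the 76 3P extract 48 h library, and that extract's 24 h library overlapped the controls. The ratio to control was 4.76 (counting interval 2.97 to 7.97) at 24 h and 1.49 (1.04 to 2.16) at 48 h with the 74 3NP extract. With the 76 3P extract it was 2.11 (1.28 to 3.60) and 5.03 (3.79 to 6.79), and with 5-FU 1.60 (0.924 to 2.84) and 0.602 (0.360 to 0.979). CFB thus showed its larger ratio at 24 h under one extract and at 48 h under the other, and the limma mean differences were 0.48 and 0.76 (SE 0.36 each, limma adjusted p 0.606 and 0.319). Without the 76 3P extract 24 h library that extract's CFB stood 1.40 above control and 1.44 above 5-FU. These values rest on 1 of the 2 libraries through which CFB entered the test. The annotated spans of CFB and its neighbour C2 share 23 bases, and a C2-CFB readthrough gene (AL645922.1) was listed at 0 in every library.

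C1R (ENSG00000159403, chromosome 12, 7080214 to 7092540, minus strand) and C1S (ENSG00000182326, chromosome 12, 6988259 to 7071032, plus strand) encode the partner proteases of the C1 complex. C1R had FPKM 0.530 and 0.413 with 5-FU, 0.787 and 1.04 with the 74 3NP extract, 0.591 and 2.10 with the 76 3P extract, and 0.198 and 0.436 in the controls. C1S had FPKM 0.410 and 0.538 with 5-FU, 0.666 and 0.767 with the 74 3NP extract, 0.436 and 0.987 with the 76 3P extract, and 0.135 and 0.243 in the controls. For both genes all 4 extract libraries lay above both control libraries, and the 76 3P extract 48 h library was the highest. These levels are low, with 319 reads of C1R and 167 of C1S in that library and 25 and 19 in the control 24 h library. The C1S span overlaps EMG1 on its own strand and LPCAT3 on the other, at FPKM 3.45 to 7.11 and 3.52 to 5.69 in all libraries, so its reads are uncertain.

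The C1R ratio to control was 3.96 (counting interval 2.52 to 6.46) at 24 h and 2.38 (1.72 to 3.33) at 48 h with the 74 3NP extract, and 2.98 (1.91 to 4.82) and 4.81 (3.63 to 6.48) with the 76 3P extract. The C1S ratio was 4.91 (2.96 to 8.58) and 3.15 (2.12 to 4.78) with the 74 3NP extract, and 3.22 (1.94 to 5.62) and 4.06 (2.82 to 5.99) with the 76 3P extract. With 5-FU the C1S ratio was 3.03 (1.79 to 5.36) and 2.21 (1.43 to 3.45), while that of C1R was 2.67 (1.67 to 4.40) at 24 h and 0.946 (0.616 to 1.44) at 48 h. The proteases of C1 were thus above control with both extracts at both times, beyond counting error in these libraries. In limma, C1R stood at 0.54 with the 74 3NP extract and 0.76 with the 76 3P extract (SE 0.29 each, limma adjusted p 0.479 and 0.236). Without the 76 3P extract 24 h library, C1R stood 1.02 above 5-FU with that extract, again on a library through which it entered the test. C1S was not tested under the filter, and without it stood at 0.53 and 0.51 (SE 0.17 each, limma adjusted p 0.676 and 0.485).

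Some markers of other cell types also had higher values in treated libraries than in the controls. The summed FPKM of 7 leukocyte genes was 2.51 and 4.57 with 5-FU, 7.71 and 7.53 with the 74 3NP extract, 3.66 and 11.5 with the 76 3P extract, and 0.887 and 2.13 in the controls. CD14 gave most of it, with 9.83 in the 76 3P extract 48 h library. ITGAM had FPKM 0.346 and 0.179 with 5-FU, 0.950 and 0.862 with the 74 3NP extract and 0.125 and 1.32 with the 76 3P extract, against 0.105 and 0.123 in the controls. CSF1R was highest with 5-FU, at 0.266 and 0.593. It was 0.185 to 0.260 in the extract libraries, against 0.0894 and 0.0933 in the controls. CD3E had 5 reads in the 76 3P extract 48 h library and 0 in the others. CD68 had 0 and 7 reads with 5-FU and 1 read in each extract library, against 1 and 3 in the controls. The defining genes PTPRC and MS4A1 were at 0 in every extract and control library, and PTPRC had 1 read in each 5-FU library. The sum of 6 fibroblast genes, 2.09 to 6.28 in treated and 1.10 to 1.36 in control libraries, was nearly all COL1A1, with COL1A2 at 0 in all 8 libraries and COL3A1, DCN and LUM at 0 in the extract libraries. LUM had 4 reads in the 5-FU 24 h library. PDGFRB, the remaining fibroblast gene, had 1 and 2 reads with 5-FU, 4 and 5 with the 74 3NP extract and 1 and 13 with the 76 3P extract, against 2 and 0 in the controls. The sum of 4 endothelial genes was 0.116 and 0.110 with 5-FU, 0.367 and 0.250 with the 74 3NP extract and 0.0689 and 0.541 with the 76 3P extract, against 0.0177 and 0.0701 in the controls. It came from PECAM1 and VWF, with CDH5 and KDR at 0 in all 8 libraries. The sum of 5 hepatocyte genes was at most 0.204, with ALB at 0 in all treated libraries. The 76 3P extract 48 h library, highest for CFB, C1R and C1S, is also the one with the most genes above 0, and the part of that, or of these markers, in the complement values was not tested.

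C1RL (ENSG00000139178, chromosome 12, 7089587 to 7109238, minus strand) encodes a C1r-like serine protease known to cleave prohaptoglobin, and lies beside C1R. It fell with 5-FU and stood near control with both extracts. FPKM of C1RL was 1.43 and 0.566 with 5-FU, 8.38 and 10.1 with the 74 3NP extract, 8.27 and 7.86 with the 76 3P extract, and 6.64 and 8.67 in the controls. Both 5-FU libraries lay far below the other 6, whose values overlapped between extracts and controls. The 5-FU values rest on 166 and 47 reads, against 718 and 989 in the controls.

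With 5-FU, C1RL fell to 0.215 of control (counting interval 0.180 to 0.254) at 24 h and to 0.0652 (0.0476 to 0.0874) at 48 h, and limma gave a log2 difference of -2.14 (SE 0.25, 95% interval -2.72 to -1.57, limma adjusted p 0.0172). It was the 1 gene of the 7 tested that passed for 5-FU against control, where 5.53% of all genes tested passed. Without the 5-FU 48 h, control 24 h or control 48 h library the value was -1.74, -2.39 and -1.90, with limma adjusted p 0.121, 0.0935 and 0.19, and with no filter the limma adjusted p was 0.179. Against 5-FU, C1RL rose by 2.39 with the 74 3NP extract and by 2.22 with the 76 3P extract (SE 0.25 each, limma adjusted p 0.0104 and 0.00412). The first of these calls was lost without the 5-FU 48 h library or either 74 3NP extract library (limma adjusted p 0.0753 to 0.113), and both with no filter (0.134 and 0.073). Against control the extracts stood at 0.25 (95% interval -0.32 to 0.82) and 0.076 (-0.50 to 0.65), neither past the test.

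C1RL overlaps C1R over 2954 bases on the same strand and the antisense gene C1RL-AS1 over 1187 bases. C1RL-AS1 had FPKM 0.330 and 0.118 with 5-FU, against 0.272 and 0.337 in the controls. No source used here states whether counting used strand, so reads of overlapping stretches are uncertain. C1R, at most 2.10, and C1RL-AS1, at most 0.456, were scarcer than C1RL in all extract and control libraries.

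CFI (ENSG00000205403, chromosome 4, 109740694 to 109802179, minus strand) encodes factor I, the protease that cuts C3b with the help of cofactors such as CD46. It had 0 reads in 7 libraries and 1 read in the control 48 h library. A count of 0 allows up to 3 reads, or FPKM 0.0209 to 0.0369 by library. CFI was not detectable at this depth with any treatment, while C3 reached 23.2.

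CD46 (ENSG00000117335, chromosome 1, 207752054 to 207795513, plus strand), the membrane cofactor for factor I, was the most even of the 9 genes. Its FPKM was 33.3 and 34.3 with 5-FU, 21.5 and 26.6 with the 74 3NP extract, 29.4 and 32.3 with the 76 3P extract, and 32.3 and 35.9 in the controls. Both 74 3NP extract libraries were the lowest of the 8, at 0.666 (counting interval 0.639 to 0.694) and 0.741 (0.713 to 0.770) of control. Limma gave -0.49 (SE 0.19, 95% interval -0.93 to -0.06, limma adjusted p 0.373), which of the 19 alternatives passed only on the 4 libraries compared (limma adjusted p 0.0496). The 76 3P extract stood at -0.14 (95% interval -0.58 to 0.30) and 5-FU at -0.0087 (-0.45 to 0.43).

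CD55 (ENSG00000196352, chromosome 1, 207321532 to 207386804, plus strand) encodes decay-accelerating factor, which takes C3 convertases apart. Its FPKM was 12.8 and 46.7 with 5-FU, 13.3 and 10.7 with the 74 3NP extract, 13.0 and 23.9 with the 76 3P extract, and 15.3 and 10.5 in the controls. At 24 h all 3 treated libraries were below the control, and at 48 h the 5-FU and 76 3P extract libraries were the highest of all. The 48 h ratio to control was 4.44 (counting interval 4.18 to 4.72) with 5-FU, 1.01 (0.936 to 1.10) with the 74 3NP extract and 2.27 (2.13 to 2.42) with the 76 3P extract. At 24 h it was 0.834 (0.781 to 0.891), 0.867 (0.809 to 0.929) and 0.848 (0.797 to 0.902) in the same order. The mean differences did not pass, at 0.90 (SE 0.48, limma adjusted p 0.246) with 5-FU, -0.087 (limma adjusted p 0.959) with the 74 3NP extract and 0.44 (limma adjusted p 0.67) with the 76 3P extract. Without the 5-FU 24 h library the 5-FU value was 1.79 and without the 48 h library 0.014, each resting on the 5-FU library left. The 5-FU 48 h library, highest for CD55 and CD59, also had 5.52% mitochondrial reads, and the part of that was not tested. The 74 3NP extract against 5-FU stood at -0.99 (limma adjusted p 0.196), and at -1.88 without the 5-FU 24 h library.

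CD59 (ENSG00000085063, chromosome 11, 33703010 to 33736479, minus strand) encodes the membrane protein that blocks assembly of the terminal pore. Its FPKM was 18.0 and 31.3 with 5-FU, 11.8 and 15.4 with the 74 3NP extract, 14.0 and 9.95 with the 76 3P extract, and 14.5 and 13.6 in the controls. Both 5-FU libraries lay above the other 6. The ratio to control was 1.24 (counting interval 1.18 to 1.30) at 24 h and 2.30 (2.20 to 2.40) at 48 h with 5-FU, 0.816 (0.773 to 0.860) and 1.13 (1.08 to 1.19) with the 74 3NP extract, and 0.968 (0.926 to 1.01) and 0.732 (0.696 to 0.771) with the 76 3P extract. The 5-FU mean difference was 0.72 (SE 0.29, 95% interval 0.06 to 1.37, limma adjusted p 0.143), and 1.13 without the 5-FU 24 h library. Against control the extracts stood at -0.053 (95% interval -0.71 to 0.60) and -0.23 (-0.88 to 0.43). The 76 3P extract stood 0.95 below 5-FU on the log2 scale (log2 difference -0.95, SE 0.29, limma adjusted p 0.0513), and passed with a filter at FPKM 5, on the 4 libraries compared and with voom (limma adjusted p 0.0295, 0.0472 and 0.0307). Without the 5-FU 24 h or the 76 3P extract 24 h library that difference was -1.36 or -1.35, each with 1 library left for that treatment. The 74 3NP extract against 5-FU stood at -0.77 (limma adjusted p 0.11), and at -1.19 without the 5-FU 24 h library.

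The summed FPKM of CD46, CD55 and CD59 was 64.0 and 112 with 5-FU, 46.6 and 52.6 with the 74 3NP extract, 56.3 and 66.2 with the 76 3P extract, and 62.1 and 60.0 in the controls. Both 74 3NP extract libraries had the smallest sums, and the 5-FU 48 h library had the largest. CD55 made up 41.6% of the sum in the 5-FU 48 h library and 36.1% in the 76 3P extract 48 h library, against 17.5% in the control 48 h library. CD46 made up 30.6% and 48.9% in those treated libraries, against 59.8% in that control. With the 74 3NP extract at 48 h CD55 held 20.3%, nearer to that control.

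**Figure D3:**
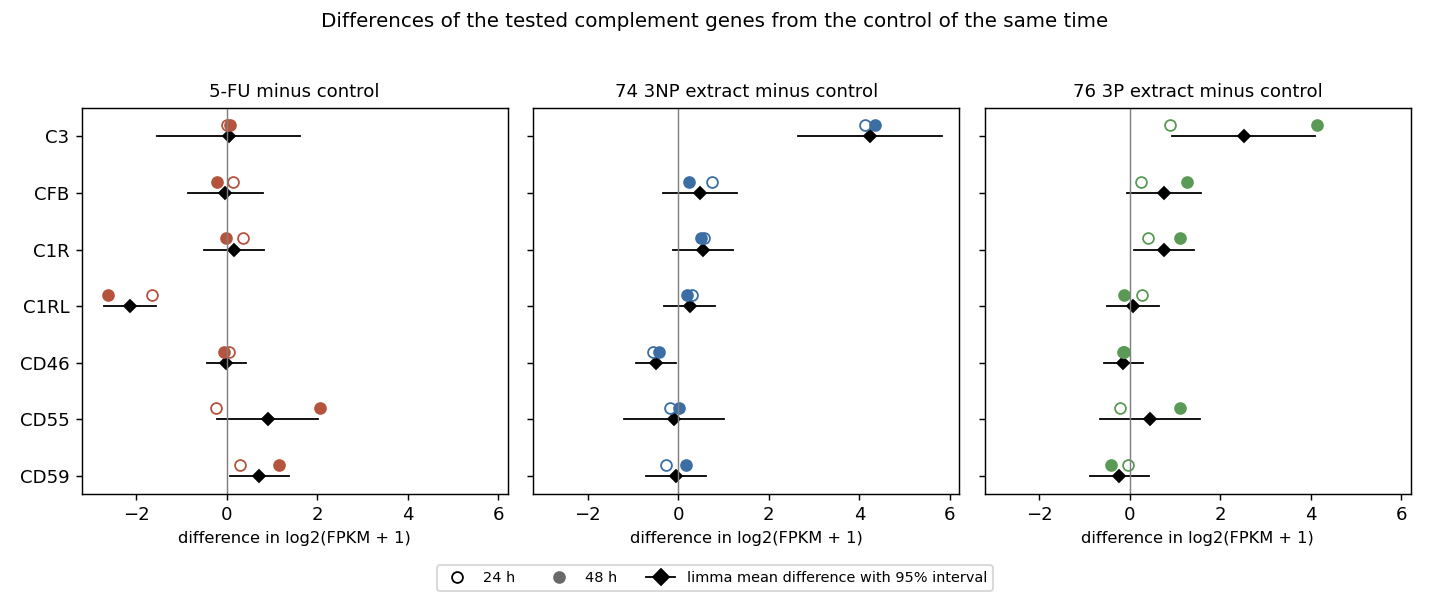
Difference from control in log2(FPKM + 1) for the 7 complement genes tested, with open points for 24 h, filled points for 48 h and diamonds with bars for the limma mean difference and its 95% interval. C3 points lie at 4.13 and 4.33 for the 74 3NP extract and at 0.89 and 4.14 for the 76 3P extract, and C1RL lies at -1.66 and -2.63 for 5-FU.

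Counted over the 7 genes tested, limma called 0 for the 74 3NP extract against control, where it called 0.0523% of all genes, and 0 for the 76 3P extract against control, where it called 0%. At an unadjusted p under 0.05 there were 2 genes in each (C3 and CD46, and C3 and C1R), where 12.1% and 17.6% of all genes were. Voom called 1 and 0 of the 7, and 17 and 184 of all genes. Between the extracts 0 of 7 and 0% of all genes passed, with 1 gene (C3) at an unadjusted p under 0.05, as were 12.9% of all genes, and 0 by voom, which called 26 of all genes. Against 5-FU, 2 genes (C3 and C1RL) passed with the 74 3NP extract, where 10.8% of all genes did, and the same 2 with the 76 3P extract, where 19.3% did. Comparisons against control share the control libraries, and those against 5-FU share the 5-FU libraries, so they are not independent. C3, CFB and C1R entered the test only through extract libraries, which tilts these counts, so nothing is read from them against the shares.

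By size alone, C3 was at least 1 log2 unit higher at both times with the 74 3NP extract, as were 1.37% of all genes tested. C3 is again a gene that the filter kept for its extract values. C1RL was at least 1 log2 unit lower at both times with 5-FU, as were 1.09%. No gene of the 7 was that much higher at both times with 5-FU (1.22% of all genes) or with the 76 3P extract (0.642%). None was that much lower at both times with the 74 3NP extract (0.0822%) or the 76 3P extract (0.635%).

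Among 49 other complement genes, 9 passed the filter and 40 did not, among them C1QA, C4A, C4B, CR1 and SERPING1. Limma called 0 of the 9 in each treatment against control, where it called 5.53% of all genes for 5-FU, 0.0523% for the 74 3NP extract and 0% for the 76 3P extract. In the same order voom called 1 (C4BPB), 0 and 0 of the 9, and 1150, 17 and 184 of all 13388 genes tested. For 5-FU 7 were higher and 2 lower (median log2 difference 0.21, against 0.0033 over all genes tested), with 2 at an unadjusted p under 0.05, as were 29% of all genes. For the 74 3NP extract 7 were higher and 2 lower (median 0.62, against -0.027 over all genes), with 3 at an unadjusted p under 0.05, as were 12.1% of all genes. For the 76 3P extract 7 were higher and 2 lower (median 0.87, against -0.049), with 4 at an unadjusted p under 0.05, as were 17.6% of all genes. C8G, C4BPA and SUSD4 reached FPKM 1 only in extract libraries, so the filter tilts the extract counts and medians upward and nothing is read from them.

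CFD, the protease that cuts factor B once it is bound to C3b, had FPKM 8.11 and 7.02 with 5-FU, 22.4 and 15.8 with the 74 3NP extract, 8.52 and 34.3 with the 76 3P extract, and 7.15 and 8.97 in the controls. Like C3, it was high at both times with the 74 3NP extract and only at 48 h with the 76 3P extract. Its limma differences were 1.14 and 1.02 for the extracts (SE 0.48 each, limma adjusted p 0.399 and 0.312). SUSD4, a membrane inhibitor of complement, had FPKM 0.575 and 0.588 with 5-FU, 1.59 and 1.99 with the 74 3NP extract, 0.819 and 4.56 with the 76 3P extract, and 0.226 and 0.531 in the controls. Its differences were 1.02 and 1.21 for the extracts (SE 0.37 each, limma adjusted p 0.35 and 0.162). On the 4 libraries compared, CFD and SUSD4 passed with the 74 3NP extract (limma adjusted p 0.0118 and 0.0168), though SUSD4 entered the test only through extract libraries. Without the 76 3P extract 24 h library they stood 2.03 and 1.93 above control with that extract, values that rest on its 48 h library alone. C8G, a chain of the C8 pore component, was likewise higher in all 4 extract libraries, at 0.638 and 1.87 with the 74 3NP extract and 0.619 and 2.39 with the 76 3P extract, against 0.160 and 0.417 in the controls. It rests on 4 and 11 reads in the controls.

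CLU and C4BPB, both fluid-phase regulators, had their highest values with 5-FU. CLU, clusterin, which binds terminal complexes, had FPKM 5.71 and 25.4 with 5-FU, 4.01 and 2.96 with the 74 3NP extract, 8.60 and 10.4 with the 76 3P extract, and 4.91 and 2.33 in the controls. C4BPB, a chain of C4b-binding protein, had 2.46 and 7.02 with 5-FU, 2.41 and 2.07 with the 74 3NP extract, 2.01 and 1.62 with the 76 3P extract, and 1.18 and 1.02 in the controls. The 5-FU differences were 1.58 for CLU (SE 0.54, limma adjusted p 0.107) and 1.33 for C4BPB (SE 0.34, limma adjusted p 0.0577). Without the 5-FU 24 h library they were 2.73 and 2.01, values that rest on the 5-FU 48 h library alone. As with CD55 and CD59, the 5-FU 48 h library was the highest of the 8 for both.

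C4BPA, the other chain of that protein, had FPKM 0.537 and 0.364 with 5-FU, 1.59 and 1.03 with the 74 3NP extract, 0.206 and 2.17 with the 76 3P extract, and 0.280 and 0.212 in the controls. Its 5-FU 48 h value was not the highest, as that of C4BPB was. Without the 76 3P extract 24 h library, C4BPA stood 1.45 above control with that extract. That value rests on the 48 h library alone, and C4BPA passed the filter only through extract libraries. C5AR1, the C5a receptor, stood at 4.58 in the 76 3P extract 48 h library, against 1.05 in the control of that time. Its difference for that extract was 0.95 (SE 0.29, limma adjusted p 0.158), and 1.45 on the 48 h library of that extract alone. C5, the precursor of that ligand and of the pore, ranged from 0.827 to 1.55 in the treated libraries, against 1.35 and 2.02 in the controls. C1QBP, a C1q-binding protein found mainly in mitochondria, was lowest with the 76 3P extract, at 32.8 and 22.1, against 43.7 and 38.6 in the controls (difference -0.59, SE 0.20, limma adjusted p 0.202).

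**Figure D4:**
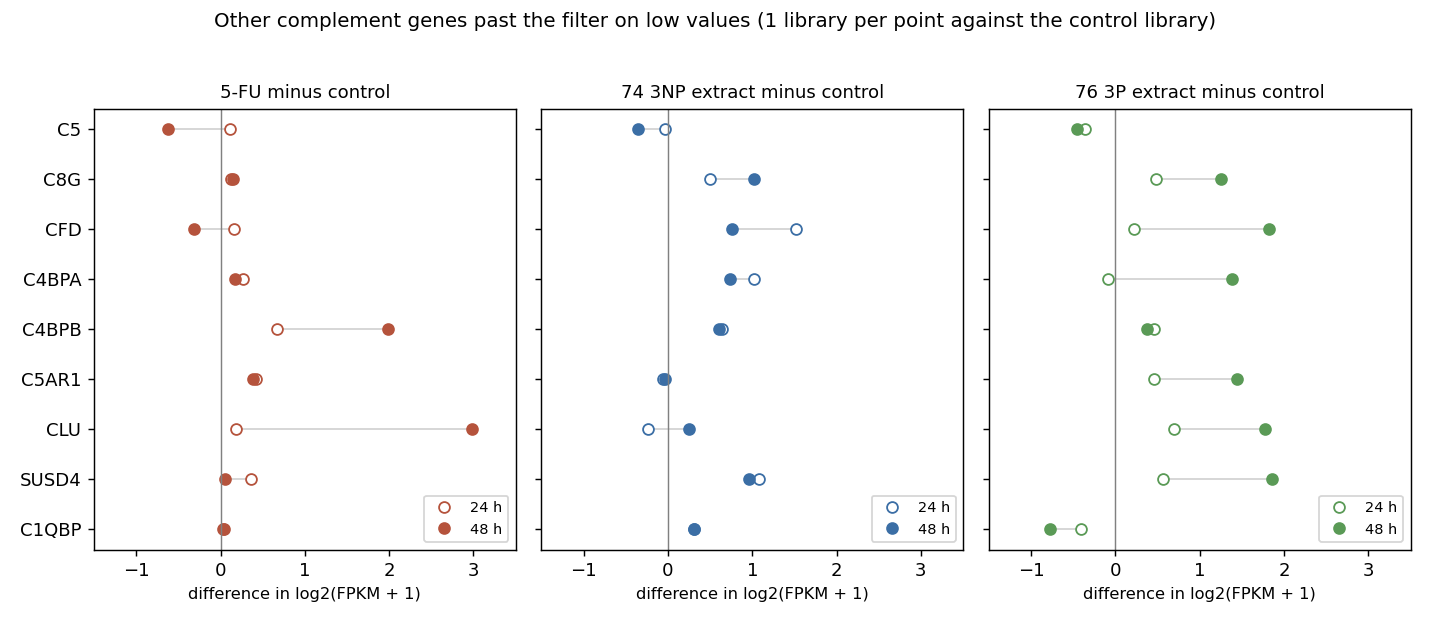
Difference from the control library of the same time in log2(FPKM + 1) for the 9 other complement genes past the filter, open for 24 h and filled for 48 h, with 1 library per point. CFD, SUSD4 and C8G lie to the right of 0 in all 4 extract comparisons, and CLU at 48 h lies farthest right with 5-FU, at 2.99.

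Genes whose pattern over the 8 libraries was most like each complement gene were listed by Pearson correlation of log2(FPKM + 1), from protein-coding genes with mean FPKM of 2 or more. C3 was closest to SERPINA4 (r 0.989), LGALS1 (0.983) and SYNPO (0.982), and LGALS1, galectin-1, had FPKM 125 and 85.3 with the 74 3NP extract and 19.3 and 81.4 with the 76 3P extract, against 11.1 and 10.2 in the controls. CFB was closest to PDIA6 (0.986), SLC5A1 (0.981) and MYCL (0.977), and C1R to genes that include TNFSF9 (0.992) and RGS16 (0.974). PDIA6, SLC5A1, MYCL, TNFSF9 and RGS16 were all highest in the 76 3P extract 48 h library.

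C1RL was closest to HIBCH (0.995), GLT8D1 (0.993) and COG2 (0.993), each lowest in the 5-FU libraries, HIBCH at 1.32 and 0.592, against 3.45 and 3.78 in the controls. CD59 was closest to MRPS15 (0.988), SKP1 (0.988) and TMEM9B (0.987), and CD55 to SRA1 (0.958), TM2D2 (0.954) and C1orf116 (0.950), all 6 highest in the 5-FU 48 h library. CD46 was closest to HECA (0.950), RNF11 (0.947) and ZNF766 (0.928). The 8 points share treatments and times, so these values only describe the libraries.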

How the data were processed

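HT-29 cells were sequenced in 8 libraries, 1 per treatment and time. Per the labels' protocols, low-quality reads were removed and HISAT2 did the mapping. The submitters' processing notes give HISAT2 2.0.5 and name GRCh38 and hg38. The counter and annotation release, not given in the sources used here, stay unnamed. The authors deposited FPKM values for 60796 genes. FPKM times gene length gave whole reads for 100% of values (tolerance 0.01 reads). Reads left after the authors' quality filter ranged from 44361052 to 68674126.

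The 13388 genes that reached FPKM 1 in at least 2 libraries were fitted as log2(FPKM + 1), which understates changes of low genes, with limma version 3.58.1 in R 4.3.3, treatment plus time, a variance trend, 3 residual and a median of 5.39 prior degrees of freedom. The 6 contrasts were tested, two-sided, with Benjamini-Hochberg adjustment over all genes in each and a threshold of 0.05. With 1 library per treatment and time, p-values rest on how treatment differences vary between 24 h and 48 h. That spread holds real changes of effect with time and variation between libraries, which may be technical, and cannot tell them apart. The 74 3NP, 76 3P and 5-FU contrasts share 1 spread. Ratios at 1 time carry exact 95% intervals from recovered reads, and a 0 allows 3 reads; both cover counting error only.

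Named were the 9 genes, other complement genes past the filter from a list of 49, and the 3 most similar genes to each tested gene, of which some are not reported here. The genes and lists were chosen with earlier results of these data known. Upstream genes were a list of 21. Alternatives were pseudocounts of 0.1 and 5, no filter and FPKM 5, median-ratio, quantile and total-read scaling, no variance trend, 4 libraries, no time term, voom and each library left out. The fit was tested on simulated counts of genes at FPKM 1 or more in the controls, with no change of effect between 24 h and 48 h. That setting does not cover C3, CFB and C1R, which were below FPKM 1 in the controls. Counting intervals and figures used Python 3.11.15 with scipy 1.17.1, numpy 2.4.6, matplotlib 3.10.9 and pandas 2.3.3.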

Additional observations from a re-analysis of the deposited data

Results flagged for a closer look

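Several genes stood on opposite sides of control at 24 h and 48 h, each beyond the counting interval of its library pair at the FPKM scaling. The difference between the times was not tested, since each time has 1 library per treatment. CD55 was at 0.834 of control at 24 h and 4.44 at 48 h with 5-FU, and at 0.848 and 2.27 with the 76 3P extract. CD59 was at 0.816 and 1.13 of control with the 74 3NP extract. C1RL was at 1.25 and 0.907 of control with the 76 3P extract. CLU, from the other complement genes, was at 0.816 and 1.27 of control with the 74 3NP extract. The control libraries themselves differed between the times, with CD55 at FPKM 15.3 and 10.5 and C1RL at 6.64 and 8.67.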

How the results depend on the processing

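Over 786 values of the 7 tested genes under 19 alternatives, 723 kept direction and side of the threshold, 22 lost and 20 gained a call, and 21 changed direction. Called genes numbered 0 in place of 1 for 5-FU against control with no filter, and 0 to 3 with a library left out. For the 74 3NP extract against control they numbered 1 in place of 0 with a filter at FPKM 5 or voom, 2 on the 4 libraries compared and 0 to 1 with a library left out. For the 76 3P extract against control, and between the extracts, the left-out ranges were 0 to 2 and 0 to 1. For the 74 3NP extract against 5-FU the count of 2 became 0 with no filter and 0 to 4 with a library left out. For the 76 3P extract against 5-FU it became 1 with a pseudocount of 5, quantile normalization or no time term (the fit without the block that pairs libraries by time), 0 with no filter and 1 to 5 with a library left out. It was 3 with a filter at FPKM 5, on the 4 libraries compared and with voom. Without the time block no other call among the 7 genes changed, IL6R lost its call for the 74 3NP extract against 5-FU, and calls over all genes numbered 394 in place of 740 for 5-FU and 2 in place of 7 for the 74 3NP extract against control. Over all genes, calls ranged from 0 to 2589 for 5-FU, 0 to 1344 for the 74 3NP extract and 0 to 803 for the 76 3P extract against control.

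With a library left out, several values changed direction, and not only those near 0. On all libraries CD55 with the 76 3P extract stood at 0.44 against control and at -0.46 against 5-FU, and both changed direction. With 5-FU against control C3 ranged from -0.54 to 0.63, CFB from -0.29 to 0.23, C1R from -0.13 to 0.46 and CD46 from -0.084 to 0.067. With the 74 3NP extract CD55 ranged from -0.73 to 0.55 and CD59 from -0.21 to 0.10. With the 76 3P extract C1RL ranged from -0.17 to 0.32, CD55 from -0.20 to 1.08 and CD59 from -0.63 to 0.17. Between the extracts CFB ranged from -0.92 to 0.37, C1R from -0.64 to 0.21, C1RL from -0.011 to 0.36 and CD59 from -0.23 to 0.58, and for the 76 3P extract against 5-FU CD55 ranged from -1.35 to 0.43. Quantile normalization put CFB at 0.058 for 5-FU against control and CD46 at 0.13 for the 76 3P extract against 5-FU, and scaling to total reads put that CD46 value at 0.0017. With no filter more genes were tested (33187). With a library left out its treatment kept 1 library, which added nothing to the spread. The cause of these changes was not tested. Among the other complement genes and the upstream genes, calls against control ranged from 0 to 4 over the alternatives. Low read numbers limit CFB, C1R, C1S and CFI.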

Other observations

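Genes known upstream of complement transcription in epithelial cells were read from a list of 21, of which 16 passed the filter. Limma called 0 of them in each treatment against control, with 3, 3 and 7 at an unadjusted p under 0.05 for 5-FU, the 74 3NP extract and the 76 3P extract, where 29%, 12.1% and 17.6% of all genes were. Voom called 2, 0 and 1 of them, and 1150, 17 and 184 of all genes. For 5-FU 13 were higher and 3 lower, for the 74 3NP extract 8 and 8, and for the 76 3P extract 13 and 3. The medians were 0.28, 0.062 and 0.45 on the log2 scale, against 0.0033, -0.027 and -0.049 over all genes tested.

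NFKB1, NFKB2, RELA, RELB and TNF were named after their values were seen. NFKB2, an NF-kB subunit gene, had FPKM 15.6 and 21.1 with 5-FU, 21.8 and 15.9 with the 74 3NP extract, 24.1 and 33.7 with the 76 3P extract, and 10.3 and 10.8 in the controls. RELB, its partner, had 9.26 and 17.3 with 5-FU, 13.0 and 8.06 with the 74 3NP extract, 13.6 and 14.6 with the 76 3P extract, and 4.75 and 5.13 in the controls. All 6 treated libraries lay above both controls for NFKB2 and RELB. The share of all genes with that order was not counted, so nothing is read from it. NFKB1, another subunit gene, had 11.4 and 9.52 with 5-FU, 10.3 and 5.98 with the 74 3NP extract, 9.98 and 4.43 with the 76 3P extract, and 10.4 and 7.62 in the controls. RELA, also a subunit gene, had 30.8 and 47.8 with 5-FU, 28.0 and 27.5 with the 74 3NP extract, 29.8 and 29.0 with the 76 3P extract, and 29.3 and 28.9 in the controls. Limma called none of NFKB1, NFKB2, RELA and RELB against control in any treatment. TNF, an inflammatory cytokine gene, stood at 7.06 in the 76 3P extract 48 h library, against 0.677 in the control of that time, and at 1.22 to 1.28 with the 74 3NP extract, and reached FPKM 1 only in those libraries.

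Relative to 5-FU, limma called 2 of the 16 upstream genes tested with the 76 3P extract, where it called 19.3% of all genes. CEBPB, a factor of the acute phase response, was higher (0.91, SE 0.24, limma adjusted p 0.034), and the interferon gamma receptor gene IFNGR2 was lower (-1.14, SE 0.24, limma adjusted p 0.0199). Both calls were lost with no filter and without the 5-FU 48 h or 76 3P extract 48 h library (limma adjusted p 0.116 to 0.175), and that of CEBPB on the 4 libraries compared (0.186) and without either 74 3NP extract or either control library (0.0684 to 0.0819). With the 74 3NP extract limma called 1 of the 16, where it called 10.8% of all genes. IL6R, the interleukin 6 receptor gene, was lower in the 74 3NP extract libraries than in the 5-FU libraries (-1.01, SE 0.25, limma adjusted p 0.0432). That call was lost with no filter, scaling to total reads or no time term, and without the 5-FU 48 h, either 74 3NP extract or either control library (limma adjusted p 0.0503 to 0.246).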
